A study of Mus musculus with 2 samples.

Results

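The transcripts described here are the 10 genes of the T cell receptor complex that were counted per cell: Cd3d, Cd3e, Cd3g and Cd247, which encode the invariant CD3 signalling chains, and Trdc, Trac, Trbc1, Trbc2, Tcrg-C1 and Tcrg-C2, the constant genes of the delta, alpha, beta and gamma receptor chains. They were chosen by name, and all 10 were among the 17238 genes of the deposited table of cells. IL7ra+ innate lymphoid cells (ILCs) had been sorted from small intestine (SI) and colon of fed C57BL/6 mice, 8 weeks old, and their RNA was counted cell by cell with the 10x Chromium 3′ kit, version v2. There was 1 library per tissue, each from a pool of 8 mice, so that no difference between mice can be measured. The table held 5490 cells of the SI and 7549 cells of the colon.

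An antigen receptor reaches the cell surface only when its variable chains, either alpha with beta or gamma with delta, assemble with CD3 dimers. The zeta chain made from Cd247 is a further part of the complex. ILCs are lymphocytes without a rearranged antigen receptor. They share their lineage regulators with T cells, and unrearranged receptor loci and some CD3 genes are known to be transcribed in cells that never make a receptor. The intestine also holds many T cells, among them gamma delta T cells, which can carry the interleukin 7 receptor on which the sort was based.

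The median cell had 2579 unique molecular identifiers (UMIs, counted RNA molecules) in the SI and 2600 in the colon. A total of 60 barcodes occurred in both libraries, out of 737280 possible barcodes. The number that random draws would share was not computed, so the count is no sign of carry-over. Il7r, the gene of the sorted receptor, had a UMI in 83.7% of SI cells and 67.5% of colon cells. Id2, a regulator that all ILCs use, had a UMI in 82.4% of SI cells and 83.5% of colon cells. Levels below are given for a group of cells as CPM (the group's UMIs of the gene over all its UMIs, scaled to 1000000). Ranges in brackets are exact 95% intervals, which cover counting error only. Since each tissue had a single library, values are compared without tests or p-values.

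T cells were marked by joint detection. A cell was called CD3-joint when at least 2 of the 3 genes Cd3d, Cd3e and Cd3g had a UMI; Cd247 and the receptor constant genes played no part in this call. In the SI 419 cells were CD3-joint, 7.63% (6.94 to 8.37%), against 1449 cells or 19.2% (18.3 to 20.1%) in the colon. After each cell was thinned to 1000 UMIs, the shares were 5.08% in the SI and 10.9% in the colon. The colon share was thus the larger at both depths. CD3-joint cells had a median of 2503 UMIs against 2586 in other cells of the SI, and 2424 against 2634 in the colon.

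The 7 members that the call did not use fell into a restricted and a broad set. In the SI 6 of the 7 were at least 2-fold higher in CD3-joint cells than in other cells, and in the colon 5 of the 7. Among all genes with at least 20 UMIs, 4.37% passed that fold in the SI and 4.05% in the colon. Trdc, the delta constant gene, showed the highest level, 1625 CPM in CD3-joint cells against 16.4 CPM in other cells of the SI (98.9-fold, 86.2 to 114), and 1495 CPM against 34.7 CPM in the colon (43.1-fold, 39.7 to 46.9). Cd247 was at 307 CPM against 4.59 CPM in the SI and at 237 CPM against 11.02 CPM in the colon. Trac, the alpha constant gene, was at 124 CPM against 11.7 CPM in the SI and at 67.5 CPM against 9.23 CPM in the colon. Tcrg-C2, a gamma constant gene, was at 261 CPM against 6.10 CPM in the SI and at 77.6 CPM against 3.13 CPM in the colon. Per UMI, these 4 genes were far more abundant where CD3 was found. Trdc lies on chr14:54142851-54148868 and Trac on chr14:54220521-54224206, 77670 bases apart by their starts, and Cd247 on chr1:165788681-165877277, all on the plus strand (GENCODE vM21, mm10, counted from 1).

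Trbc1 and Trbc2, the beta constant genes, followed another pattern. Trbc1 was at 956 CPM in CD3-joint cells and at 565 CPM in other cells of the SI (1.69-fold, 1.59 to 1.80), and at 668 CPM against 665 CPM in colon cells (1.004-fold, 0.964 to 1.05). Trbc2 was at 1467 CPM against 723 CPM in the SI and at 795 CPM against 517 CPM in the colon. Tcrg-C1, the other gamma constant gene, stood between the sets, at 801 CPM against 253 CPM in the SI and at 649 CPM against 143 CPM in the colon. Outside CD3-joint cells, 60.3% of SI cells and 69.3% of colon cells had a Trbc1 UMI, or 38.1% and 43.4% after thinning. Beta constant RNA by itself therefore did not mark the CD3-joint cells.

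**Figure D1:**
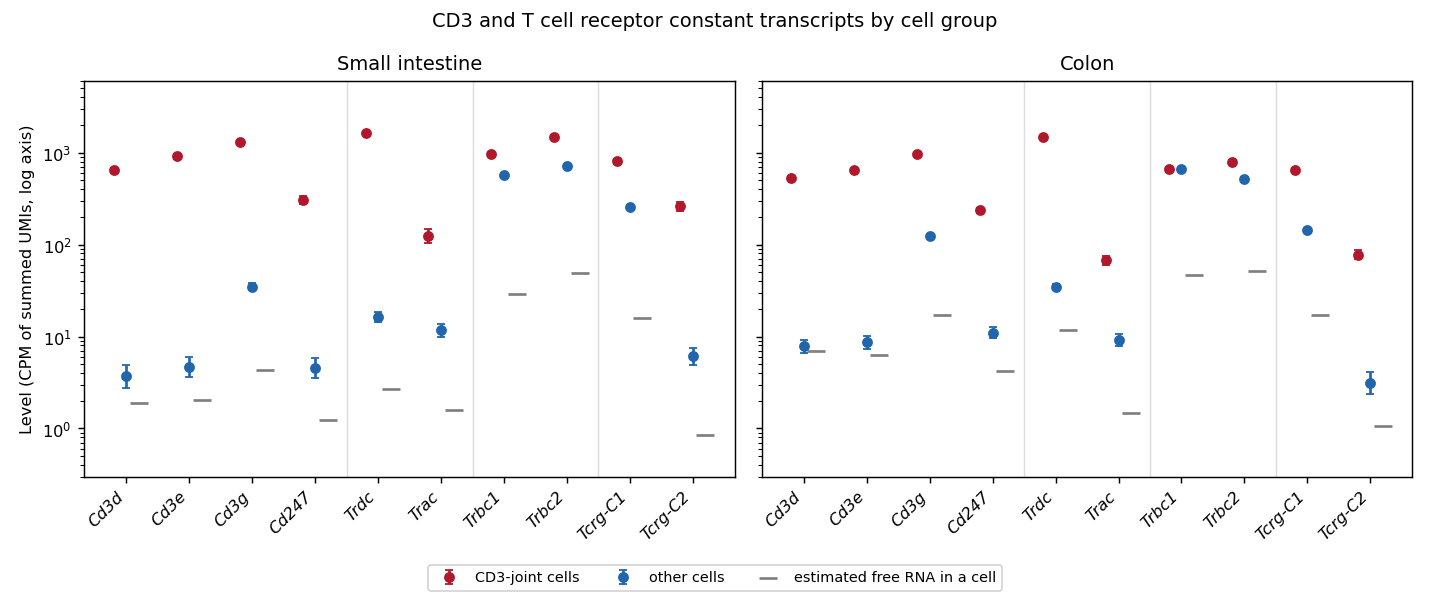
Level of each member in CPM (log axis) in CD3-joint cells (red), in other cells (blue) and as estimated for free RNA in a cell (grey bars), with 95% counting intervals, in the SI (left) and colon (right). Trbc1 and Trbc2 lie close together in the CD3-joint and other cells, whereas Cd3d, Cd3e, Cd247, Trdc, Trac and Tcrg-C2 are far apart; Cd3d, Cd3e and Cd3g defined the groups.

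Both pairs of constant genes are close copies, and the stretches here show how far reads can tell them apart. Trbc1 lies on chr6:41538218-41539881 and Trbc2 on chr6:41546730-41548352, both on the plus strand. The first 259 transcript bases of the pair are identical. Bases 361 to 480 of the GENCODE transcripts, all coding, differ at 14 of 120 positions, shown in capitals:
Trbc1: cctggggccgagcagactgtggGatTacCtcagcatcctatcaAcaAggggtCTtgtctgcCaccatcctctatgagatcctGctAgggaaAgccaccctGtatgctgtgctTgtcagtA
Trbc2: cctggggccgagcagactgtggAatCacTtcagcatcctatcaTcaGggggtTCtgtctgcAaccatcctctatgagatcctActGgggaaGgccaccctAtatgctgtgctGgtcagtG
Tcrg-C1 on chr13:19214103-19217024 (plus strand) and Tcrg-C2 on chr13:19304649-19307551 (minus strand) differ at 5 of 120 positions over bases 121 to 240:
Tcrg-C1: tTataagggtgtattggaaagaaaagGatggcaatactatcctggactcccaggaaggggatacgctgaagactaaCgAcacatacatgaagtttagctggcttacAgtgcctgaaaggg
Tcrg-C2: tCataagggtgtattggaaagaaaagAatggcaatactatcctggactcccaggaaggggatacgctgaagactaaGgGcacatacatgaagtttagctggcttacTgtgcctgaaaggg
Of all 50-base windows of Trbc1, 41.1% occur in Trbc2, and of those of Tcrg-C1, 17.9% occur in Tcrg-C2. How reads from shared windows were assigned is not given in the sources used here, so the split within each pair is uncertain, although 3′ libraries read mostly the ends of transcripts.

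Joint detection was graded by member. Among SI cells with a Cd3e UMI, 85.3% also had Cd3g, 66.9% had Cd3d and 72.0% had Trdc. Among colon cells with Cd3e, 84.7% had Cd3g, 68.5% had Cd3d and 78.9% had Trdc. Among cells with Trdc, 64.8% in the SI and 72.5% in the colon had Cd3e. After thinning the shares with Cd3e were 52.0% in the SI and 51.1% in the colon. Cd3g was found in more cells than Cd3e. Of the cells with a Cd3g UMI, 54.1% in the SI and 49.8% in the colon had Cd3e. After thinning, 44.7% of SI and 35.3% of colon cells with Cd3g had Cd3e, against 69.8% and 63.9% of cells with Cd3e that had Cd3g. Both shares count the same cells with both genes, so their difference restates that Cd3g was found in more cells.

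Cells with a single CD3 gene were mostly cells with Cd3g. What share the wider detection of Cd3g alone would give was not computed. In the SI 367 cells had exactly 1 of the 3 CD3 genes, and in 74.1% of them (69.3 to 78.5%) it was Cd3g. In the colon there were 1238 such cells, and it was Cd3g in 80.4% (78.0 to 82.6%). Thinned to equal depth, the shares were 68.4% in the SI and 69.8% in the colon. Cells with Cd3d alone numbered 47 in the SI and 123 in the colon, and cells with Cd3e alone 48 in the SI and 120 in the colon.

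**Figure D2:**
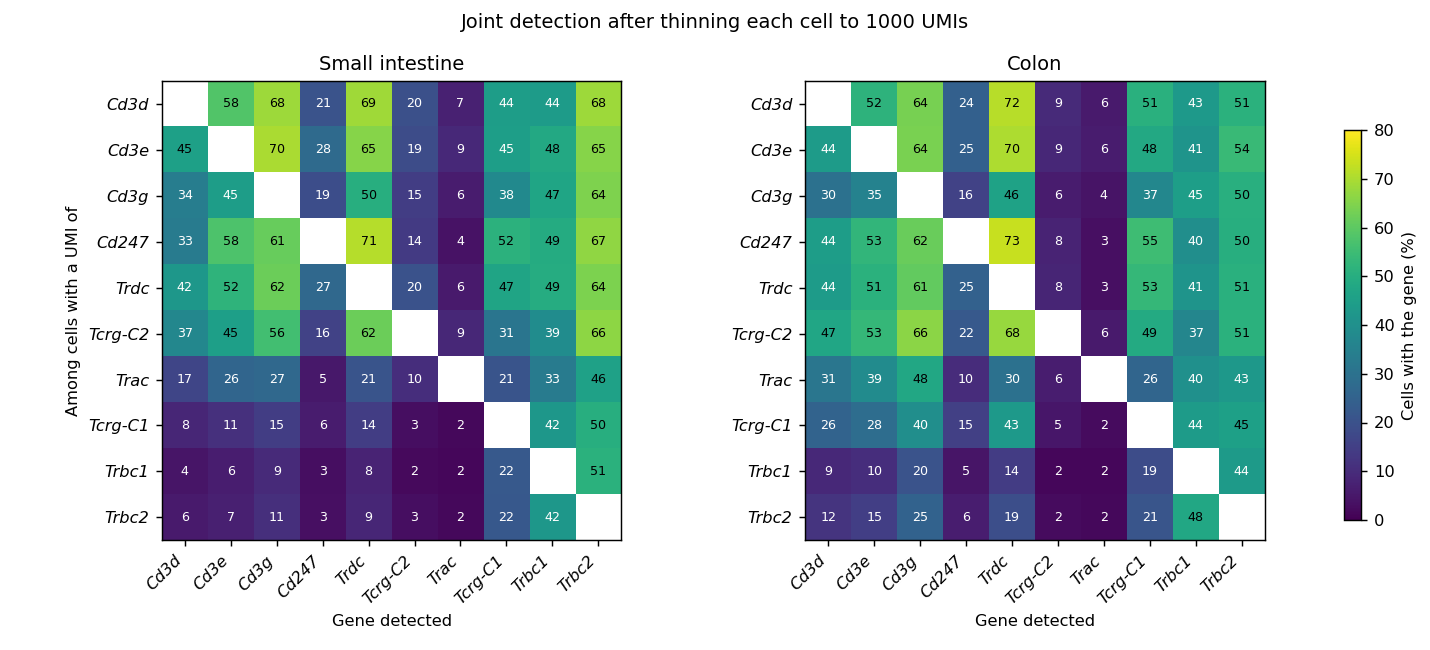
Percent of cells with a UMI of the column gene among cells with a UMI of the row gene, each cell thinned to 1000 UMIs, in the SI (left) and colon (right). The matrix is not symmetric: Cd3g was found in 69.8% of Cd3e cells in the SI and 63.9% in the colon, Cd3e in 44.7% of Cd3g cells in the SI and 35.3% in the colon, and Cd3e in 7.01% of Trbc2 cells in the SI and 14.9% in the colon.

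The chain type of CD3-joint cells was read from Trdc and Trac, because Trbc1, Trbc2 and Tcrg-C1 were common in all cells; this choice was made after the data had been seen. In the SI 281 of 419 CD3-joint cells (67.1%, 62.3 to 71.5%) had Trdc without Trac, and in the colon 1093 of 1449 (75.4%, 73.1 to 77.6%). Trac without Trdc was found in 29 cells of the SI (6.92%) and 64 cells of the colon (4.42%). Both genes were found in 49 SI cells and 111 colon cells, and neither in 60 SI cells and 181 colon cells. With all 6 constant genes used, 15 cells (3.58%) of the SI and 100 cells (6.90%) of the colon had only gamma or delta constants, and 88.3% and 83.6% of CD3-joint cells held both kinds. The delta constant gene was thus the more common label of these cells in both tissues, and beta constant RNA was present beside it.

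The Trac cells differed from the Trdc cells in genes that were not used to choose them. Values here are for cells with Trac and no Trdc, then for cells with Trdc and no Trac. Cd163l1, a scavenger receptor known from gamma delta T cells that make interleukin 17, was at 124 CPM against 566 CPM in the SI and at 41.8 CPM against 687 CPM in the colon. Cd28, the costimulatory receptor, was at 420 CPM against 143 CPM in the SI (2.94-fold, 1.93 to 4.36) and at 524 CPM against 80.4 CPM in colon cells (6.53-fold, 5.19 to 8.17). Lck, the kinase that starts receptor signalling, was 2.76-fold higher in the Trac cells of the SI (1.98 to 3.79) and 4.198-fold higher in those of the colon (3.04 to 5.72). Cd6 was 4.19-fold higher in the SI and 32.4-fold higher in the colon (16.7 to 66.2). Cd8a rested on 15 UMIs against 22 UMIs in the SI and on 10 UMIs against 15 UMIs in the colon. Cd247 was at 148 CPM against 369 CPM in the SI and at 83.5 CPM against 281 CPM in the colon, and Tcrg-C1 at 235 CPM against 985 CPM in the SI and at 125 CPM against 749 CPM in the colon. Trbc1 was at 964 CPM against 1010 CPM in the SI and 747 CPM against 637 CPM in the colon. Trbc2, the other beta constant gene, was at 2311 CPM against 1481 CPM in the SI (1.56-fold, 1.33 to 1.82) and at 942 CPM against 818 CPM in colon cells (1.15-fold, 0.993 to 1.33).

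Trdc cells were divided further by the gamma constant gene. Of the 330 CD3-joint cells with Trdc in the SI, 42.1% had Tcrg-C1 only, 10.6% had Tcrg-C2 only and 31.2% had both. Of the 1204 such cells in the colon, 64.95% had Tcrg-C1 only, 4.402% had Tcrg-C2 only and 14.8% had both. In the SI the 138 Trdc cells with Tcrg-C2 had 1820 CPM of Gzma, a granule protease of cytotoxic cells, against 72.4 CPM in the 192 without it. Gzma was concentrated in few cells, 13.0% of those with Tcrg-C2 and 1.56% of those without. Ccl5, a chemokine of cytotoxic lymphocytes, was at 4480 CPM with Tcrg-C2 against 919 CPM without it in the SI (4.87-fold, 4.39 to 5.42). In the colon Ccl5 was at 1755 CPM with Tcrg-C2 against 587 CPM without it (2.99-fold, 2.78 to 3.22). Ccl5 too was found in a minority of cells. It was in 31.2% of SI cells with Tcrg-C2 and 15.1% of those without, and in 15.6% and 11.6% in the colon. Cd163l1 went the other way in the SI, 412 CPM with Tcrg-C2 and 627 CPM without it (0.658-fold, 0.539 to 0.7998).

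Variable segments were sparse. Of 262 other genes of the receptor loci, 8 had at least 20 UMIs over both libraries, and the rest summed to 102 UMIs. Trdv4, a delta variable segment, was the most frequent, at 59.6 CPM in CD3-joint cells against 7.46 CPM in other cells of the SI and 85.5 CPM against 17.1 CPM in the colon. Trgv2, a gamma variable segment, was nearly restricted to CD3-joint cells, with 27 UMIs there against 2 UMIs in other cells of the SI (165-fold, 41.5 to 1432) and 48 UMIs against 9 UMIs in the colon (21.4-fold, 10.4 to 49.6). Among colon Trdc cells it was 4.39-fold higher in those with Tcrg-C2 than in those without (2.33 to 8.35). Tcrg-V1 was at 18.4 CPM against 1.87 CPM in the SI and 7.40 CPM against 2.24 CPM in the colon. Tcrg-V6 had 5 UMIs in CD3-joint cells against 16 in other cells of the SI, and 25 against 18 in the colon. Trdv2-2 had 7 UMIs against 8 in the SI and 11 against 7 in the colon, and Trbv12-2 had 6 against 6 and 4 against 5. Tcrg-V5 was the segment that was lower in CD3-joint cells, at 1.75 CPM against 7.82 CPM in the SI (0.224-fold, 0.0268 to 0.830) and 2.02 CPM against 4.81 CPM in the colon (0.420-fold, 0.186 to 0.835). Tcrg-C4, a further gamma constant gene, was likewise broad, at 312 CPM against 169 CPM in the SI and 154 CPM against 169 CPM in the colon.

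The genes whose pattern was most like that of the members were ranked by the ratio between CD3-joint and other cells, over 2384 eligible genes and both libraries. Cd163l1 came first, at 486 CPM against 15.4 CPM in the SI and 585 CPM against 20.2 CPM in the colon. It was followed by Blk, a Src family kinase (148 CPM against 12.8 CPM in the SI, 86.4 CPM against 10.4 CPM in the colon), Gramd3, Actn2 and Sit1, an adaptor of the T cell surface. Further genes among the 15 highest were Bcl2a1b, Ms4a4b, Fasl, Ly6g5b, Ccl5, Ms4a6b, Il21r, Lef1 and Slfn2. Farthest in the other direction were Klrg1, Ncr1, Bmp2, Hes1 and Il17rb, and then Cd81, Hs3st1, Aldh2, Arg1 and Ccdc184. Klrg1, an ILC2 receptor, was at 26.3 CPM in CD3-joint cells against 138 CPM in other cells of the SI and at 99.9 CPM against 390 CPM in the colon.

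Gene lists described the CD3-joint cells more broadly. Of the T cell surface and identity list, 14 of 20 genes were at least 2-fold higher in CD3-joint cells of the SI and 9 of 19 in the colon, and 1 was lower in each tissue, with a median log2 ratio of 2.17 in the SI (all genes -0.10) and 0.71 in the colon (all genes -0.02). The gene that was lower was Cd4 in the SI (0.401-fold, on 8 UMIs in CD3-joint cells) and Ubash3a in the colon (0.319-fold, on 9 UMIs). Cd5, Cd2 and Cd40lg were higher in both tissues; Cd2, an adhesion receptor of T cells, was at 63.1 CPM against 2.44 CPM in the SI and 47.8 CPM against 11.5 CPM in the colon. Cd28 was higher in CD3-joint cells of the SI and lower in those of the colon, at 142 CPM against 6.24 CPM in the SI and 109 CPM against 184 CPM in the colon. Of the receptor signalling list, 6 of 18 genes were at least 2-fold higher and 0 lower in the SI, and 5 of 19 higher and 1 lower in the colon, with median log2 ratios of 0.66 in the SI and 0.29 in the colon. Lat, the scaffold phosphorylated after receptor engagement, was at 492 CPM against 123 CPM in the SI and 332 CPM against 150 CPM in the colon, while Zap70, the kinase that binds CD3 chains, was at 221 CPM against 219 CPM in the SI and 179 CPM against 146 CPM in the colon.

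Of the list for gamma delta T cells of the interleukin 17 type, 7 of 16 genes were at least 2-fold higher and 4 lower in the SI, and 9 of 16 higher and 1 lower in the colon. The median log2 ratio was 0.13 in the SI and 1.46 in the colon. Il17a, the cytokine itself, was at 51.7 CPM against 15.7 CPM in the SI and 54.8 CPM against 4.36 CPM in the colon. Of the cytotoxic list, 4 of 8 genes were 2-fold higher in the SI and 3 of 8 in the colon, with medians of 1.02 in the SI and 0.35 in the colon. Of the list of natural killer (NK) and Fc receptors and their adaptors, none of 6 was 2-fold higher and 4 were lower in the SI, and 1 was higher and 2 were lower in the colon, with medians of -1.39 in the SI and -0.56 in the colon. Fcer1g, whose product can stand in for the zeta chain in receptor complexes, was at 246 CPM against 1135 CPM in the SI and 196 CPM against 401 CPM in the colon. Tyrobp, an adaptor of activating NK receptors, was at 15.8 CPM against 49.9 CPM in the SI and 50.7 CPM against 119.7 CPM in the colon. Hcst, the adaptor of the receptor encoded by Klrk1, was at 751 CPM against 495 CPM in the SI and 648 CPM against 485 CPM in the colon, and Klrk1 at 156 CPM against 301 CPM in the SI and 496 CPM against 180.0 CPM in the colon.

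Of 11 T cell markers, 8 were at least 2-fold higher in the SI and 4 in the colon, where 1 was lower; their summed level was 1629 CPM against 651 CPM in the SI and 1111 CPM against 1112 CPM in the colon. Markers of the other cells in the sort were measured in the same groups. All 8 ILC2 markers were at least 2-fold lower in CD3-joint cells in both tissues; their summed level was 361.3 CPM against 1145 CPM in the SI and 716 CPM against 2416 CPM in the colon. The share of all genes that were at least 2-fold lower was 12.4% in the SI and 6.43% in the colon. Of the 7 ILC3 markers, 3 were lower in the SI and 2 were higher in the colon. Igkc, Jchain and the other B or plasma cell markers summed to 236 CPM against 5307 CPM in the SI and 492 CPM against 2038 CPM in the colon. At most 10 UMIs of Igkc, Igha and Jchain together were found in 5477 of 5490 SI cells. In the colon this held for 7539 of 7549 cells. How far the few remaining cells carry the marker sums was not computed. The 6 myeloid markers summed to 199.9 CPM against 267 CPM in the SI and 193 CPM against 196 CPM in the colon, almost all of it Cst3, which many cell types express. Of the 2 tested, 1 was 2-fold higher in the SI, Itgax on 5 UMIs in CD3-joint cells, and 0 in the colon. In CD3-joint cells 4 of the 6 had 0 UMIs in the SI and 3 in the colon, and Csf1r had 0 UMIs in every group. The part of these cells in the differences was not tested.

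The tissues were compared over all cells first. Cd3d, Cd3g, Cd247 and Trdc were at least 2-fold lower in the SI than in the colon, that is 4 of 10 members, against 5.42% of 11962 genes. The count was 3 with free RNA subtracted, where the log2 ratio of Cd247 was -0.98 in place of -1.03, and 5 when libraries were scaled by the median ratio of genes in place of total UMIs, where that of Cd3e was -1.10 in place of -0.88. None was 2-fold higher in the SI, where 8.92% of genes were. Trdc was at 138 CPM in the SI and 326 CPM in the colon (2.36-fold higher in the colon, 2.25 to 2.48), and Cd3g at 132 CPM in the SI and 291 CPM in the colon (2.21-fold, 2.10 to 2.32). Cd3e was at 73.0 CPM in the SI and 134 CPM in the colon. Trac did not separate the tissues, at 20.2 CPM in the SI and 20.9 CPM in the colon. The median log2 ratio of all genes was 0.20, of the members -0.52. Fewer T cells and less RNA per T cell cannot be told apart in such sums, so the comparison was repeated within each cell group.

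Within CD3-joint cells the median log2 ratio of SI over colon was 0.13 for all genes and 0.48 for the members. In the SI 1 of 10 members was 2-fold or more above the colon, as were 5.0% of 9202 genes, and 0 were lower, against 4.65% of genes. The member was Tcrg-C2, at 261 CPM in the SI and 77.6 CPM in the colon (3.37-fold, 2.87 to 3.94). Over all cells Tcrg-C2 was already 1.41-fold higher in the SI, Trbc2 1.36-fold and Tcrg-C1 1.21-fold. Trbc2 was 1.85-fold and Trac 1.83-fold higher in the SI (1.74 to 1.96 and 1.49 to 2.24). Trdc was at 1625 CPM in the SI and 1495 CPM in the colon, 1.09-fold (1.03 to 1.14). Its log2 ratio of 0.12 was close to the median of all genes. Cd247 was at 307 CPM in the SI and 237 CPM in the colon, 1.30-fold (1.15 to 1.46). For Trdc and Cd247 the higher colon level seen over all cells was thus not present within CD3-joint cells. The levels of Cd3d, Cd3e and Cd3g within the group are set in part by the rule that chose it.

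Outside CD3-joint cells 4 members were again at least 2-fold lower in the SI, against 5.35% of 11730 genes, and 0 were 2-fold higher, against 9.72%. Cd3g stood out in level, at 34.7 CPM in the SI and 123 CPM in the colon (3.55-fold higher in the colon, 3.22 to 3.93). Cd3d was at 3.73 CPM in the SI and 7.83 CPM in the colon, where free RNA was estimated to give 1.89 CPM in the SI and 6.99 CPM in the colon. The log2 ratio of Cd3d between SI and colon was -1.07 as counted and 1.13 with free RNA subtracted. Cd247 was at 4.59 CPM in the SI and 11.02 CPM in the colon, and Trdc at 16.4 CPM in the SI and 34.7 CPM in the colon. Trdc lay close to the 2-fold threshold, with a log2 ratio of -1.08, and was at -0.98 without the highest doublet scores, -0.74 with free RNA subtracted and -0.28 with the broader rule of 1 CD3 gene and 1 receptor constant gene. With that broader rule Cd247 was at -0.98. By the rule these cells hold at most 1 of the 3 CD3 genes, so their Cd3d, Cd3e and Cd3g levels are bounded by it.

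The ratio of the beta constant genes also differed between the tissues outside CD3-joint cells. There were 0.781 Trbc1 UMIs per Trbc2 UMI in the SI (0.758 to 0.804) and 1.29 in the colon. Within CD3-joint cells the ratio was 0.652 in the SI (0.603 to 0.704) and 0.840 in the colon. Tcrg-C1 outside CD3-joint cells was at 253 CPM in the SI and 143 CPM in the colon (1.77-fold, 1.68 to 1.86).

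ILC states were then marked by a UMI of Gata3 (the ILC2 regulator, used at lower levels by other ILCs), Ccr6 (a chemokine receptor of lymphoid tissue inducer cells), Ncr1 (NKp46, on NK cells, ILC1 and part of the ILC3) or Klrd1 (CD94, on NK cells and some T cells). The gates overlap, so their values are not from separate sets of cells. In the SI 1153 of 1643 Gata3+ and 382 of 541 Ccr6+ cells had no other gate gene. The same held for 1120 of 1605 Ncr1+ and 66 of 172 Klrd1+ cells there. In the colon 3831 of 4218 Gata3+ and 202 of 357 Ccr6+ cells had no other. The colon numbers were 280 of 665 for Ncr1+ and 181 of 482 for Klrd1+ cells. CD3-joint cells made up 4.50% of Gata3+ cells in the SI and 9.79% in the colon. They were 1.85% of Ccr6+ cells in the SI and 12.6% in the colon, and 1.43% of Ncr1+ cells in the SI and 5.41% in the colon. Over all cells the share was 7.63% in the SI and 19.2% in the colon, above that of each of these gates. The share was highest in the Klrd1+ gate, 32.0% of its 172 cells in the SI (25.1 to 39.5%) and 23.2% of its 482 cells in the colon (19.5 to 27.3%). By number the Gata3+ gate, the largest, held the most, 74 CD3-joint cells of its 1643 in the SI and 413 of its 4218 in the colon.

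With CD3-joint cells removed, the level of each member in each gate was set against free RNA. Free RNA made up an estimated 5.36% of cell UMIs in the SI and 8.25% in the colon, and a member was counted when the lower bound of its level was over 2 times what free RNA would give. By this count 8 members passed in 1569 Gata3+ and 7 in 1582 Ncr1+ cells of the SI. In the smaller gates there, 5 passed in 531 Ccr6+ and 5 in 117 Klrd1+ cells. In the colon 5 passed in 3805 Gata3+, 4 in 312 Ccr6+, 4 in 629 Ncr1+ and 7 in 370 Klrd1+ cells. A lower bound depends on the number of cells, so the counts are not comparable between gates of unlike size. The share of all genes that pass this rule was not computed, so the counts cannot be read as particular to the members. Trac, Trbc1, Trbc2 and Tcrg-C1 passed in every gate of both tissues. Cd3d and Cd3e passed in none of the 8.

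Trbc1 and Trbc2 were lowest in Ccr6+ cells. Trbc1 was at 285 CPM in Ccr6+ cells of the SI, against 691 CPM in Gata3+, 569 CPM in Ncr1+ and 725 CPM in Klrd1+ cells. In the colon it was at 240 CPM in Ccr6+ cells, against 746 CPM in Gata3+, 484 CPM in Ncr1+ and 604 CPM in Klrd1+ cells. Tcrg-C1 was highest in Gata3+ cells, 304 CPM in the SI and 151 CPM in the colon. Trac was highest in Klrd1+ cells, 37.7 CPM against 11.1 CPM in Klrd1- cells of the SI and 21.0 CPM against 8.39 CPM in the colon. Trdc outside CD3-joint cells was low in all gates, between 5.15 and 25.1 CPM in the SI and between 18.2 and 39.4 CPM in the colon.

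**Figure D3:**
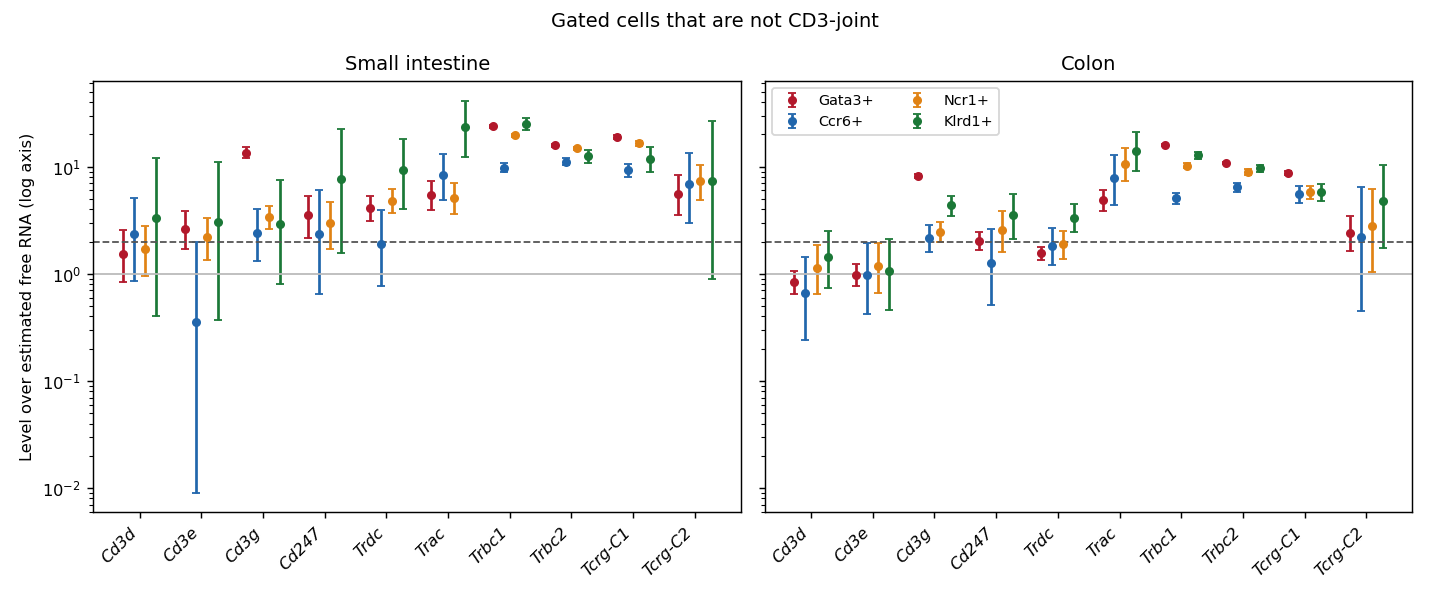
Level of each member over the estimated free RNA level (log axis) in Gata3+, Ccr6+, Ncr1+ and Klrd1+ cells that are not CD3-joint, with 95% counting intervals; the dashed line is 2 times free RNA, the solid line is 1. Cd3d and Cd3e lie at 0.356 to 3.33, Trbc1, Trbc2 and Tcrg-C1 lie well above 2 in every gate, and Cd3g stands highest in Gata3+ cells.

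Cd3g was the CD3 gene seen without its partners in Gata3+ cells. To leave out cells with a UMI of either partner, cells with 0 Cd3d and 0 Cd3e UMIs were taken. This selection was added after the data had been seen, and T cells without such a UMI can remain in it. Among the 1538 such Gata3+ cells of the SI Cd3g was at 59.1 CPM (52.4 to 66.5), and 9.10% of the cells had it. Among the 3672 of the colon it was at 146 CPM (139 to 153), and 19.8% of the cells had it. After thinning, 4.36% of the SI cells and 10.8% of the colon cells had it; among Ncr1+ cells, with a median of 2763 UMIs in the SI and 2620 in the colon, the thinned shares were 1.29% and 3.16%. Free RNA would give 4.30 CPM in the SI and 17.2 CPM in the colon. Ccr6+ cells had 10.4 CPM in the SI and 38.8 CPM in the colon, and Ncr1+ cells had 14.9 CPM in the SI and 44.7 CPM in the colon. Cells with none of the 4 gate genes had 34.0 CPM in the SI and 124 CPM in the colon, and Klrd1+ cells 13.3 CPM and 79.6 CPM. Removing cells with Trdc as well left Cd3g in Gata3+ cells at 55.8 CPM in the SI and 141 CPM in the colon. Of the 5 groups of cells, those with Gata3 had the highest Cd3g level in both tissues.

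The Cd3g level followed the number of Gata3 UMIs in the SI. With Cd3d and Cd3e at 0, it was 22.8 CPM in cells with 0 Gata3 UMIs, 43.1 CPM with 1, 61.0 CPM with 2 and 78.4 CPM (65.6 to 92.9) with 3 or more. In the colon it was 94.5 CPM with 0 Gata3 UMIs, 156 CPM with 1, 168 CPM with 2 and 130 CPM (120 to 140) with 3 or more. The colon thus showed its step between 0 and 1 UMI and no higher level at 3 or more. The rise was not particular to Cd3g. Between 0 and 3 or more Gata3 UMIs, Trbc1 went from 498 to 857 CPM in the SI and from 506 to 778 CPM in the colon. Tcrg-C1 went from 227 to 370 CPM in the SI and from 120 to 169 CPM in the colon. Trdc did not follow Gata3 in the SI, and in the colon it was at 42.1 CPM with 0 Gata3 UMIs and 14.7 CPM with 3 or more. Cells with 3 or more Gata3 UMIs had more UMIs in all, a median of 3235 against 2464 in cells with 0 in the SI, and 2942 against 2452 in the colon.

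**Figure D4:**
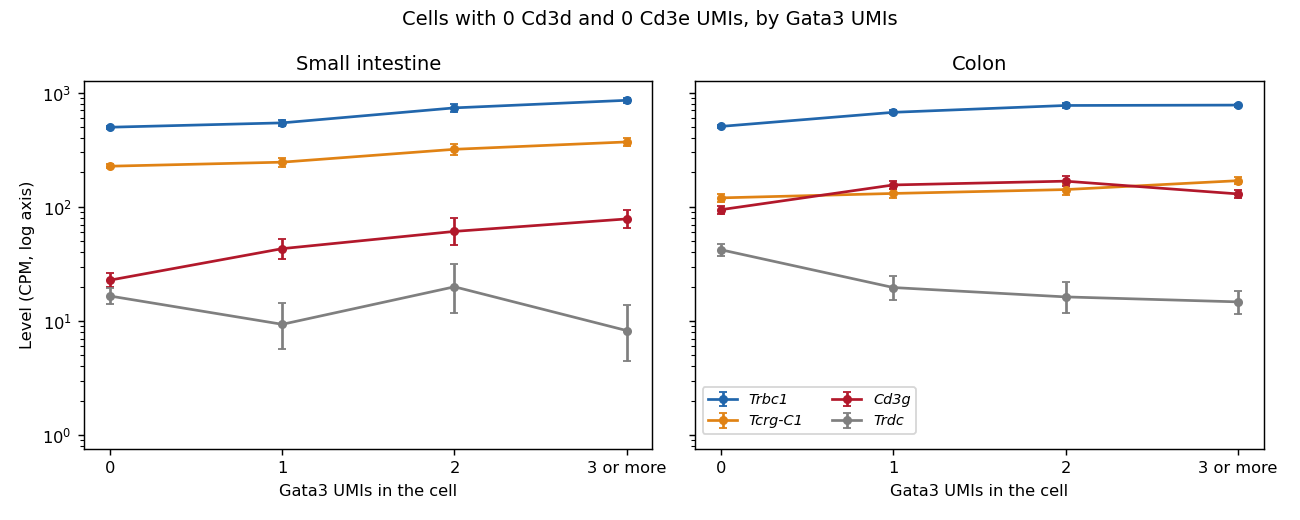
Level in CPM (log axis) of Trbc1, Tcrg-C1, Cd3g and Trdc in cells with 0 Cd3d and 0 Cd3e UMIs, by the number of Gata3 UMIs in the cell, with 95% counting intervals, in the SI (left) and colon (right). Cd3g lies at 22.8 to 78.4 CPM in the SI and 94.5 to 168 CPM in the colon, and Trdc is lower throughout. Trbc1 and Tcrg-C1 are higher with 3 or more Gata3 UMIs than with 0 in both tissues.

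The UMI ratio of Cd3g to Cd3e was also computed. Its size depends on how well each RNA is captured, so it is compared between cell groups only. It was 1.45 in CD3-joint cells of the SI (1.34 to 1.57) and 1.51 in those of the colon. In Gata3+ cells that were not CD3-joint it was 10.8 in the SI (7.20 to 16.8) and 23.0 in the colon. Free RNA had a ratio of 2.09 in the SI and 2.74 in the colon, between CD3-joint and Gata3+ cells. The Cd3d to Cd3e ratio, by contrast, stayed at 0.704 in CD3-joint cells and 0.538 in Gata3+ cells of the SI, where the second value rested on 14 and 26 UMIs. Both genes were used in the CD3-joint call, so the shift follows largely from the removal of cells with 2 CD3 genes. Before that removal Gata3+ cells had 109 CPM of Cd3g and 38.3 CPM of Cd3e in the SI. In the colon they had 215 CPM of Cd3g and 58.9 CPM of Cd3e. After the removal Cd3e was at 5.38 CPM in the SI and 6.10 CPM in the colon, and Cd3g at 57.9 CPM and 140 CPM.

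Cd3g and Cd3d are neighbours with opposite strands and 1355 bases between their annotated starts: Cd3g on chr9:44969572-44980431 (minus strand) and Cd3d on chr9:44981786-44987339 (plus strand). Cd3e lies beside them on chr9:44998740-45009627 (minus strand). Their promoters are shown because Cd3g departed from its neighbours in Gata3+ cells. They are the 250 bases before and 50 after the RefSeq start (GRCm38.p6), read along the gene, with the core of the GATA factor motif, GATAA on either strand, in capitals; its other-strand form is TTATC. Regions are chr9:44980382-44980681 (minus strand), chr9:44981536-44981835 (plus strand) and chr9:45009562-45009861 (minus strand), in the order given:
Cd3g: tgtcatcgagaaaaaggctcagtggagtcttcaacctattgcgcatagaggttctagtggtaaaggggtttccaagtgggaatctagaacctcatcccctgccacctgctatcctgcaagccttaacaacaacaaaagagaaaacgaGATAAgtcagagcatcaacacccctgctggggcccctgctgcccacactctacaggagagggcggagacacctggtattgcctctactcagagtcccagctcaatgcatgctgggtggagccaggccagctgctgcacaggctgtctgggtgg
Cd3d: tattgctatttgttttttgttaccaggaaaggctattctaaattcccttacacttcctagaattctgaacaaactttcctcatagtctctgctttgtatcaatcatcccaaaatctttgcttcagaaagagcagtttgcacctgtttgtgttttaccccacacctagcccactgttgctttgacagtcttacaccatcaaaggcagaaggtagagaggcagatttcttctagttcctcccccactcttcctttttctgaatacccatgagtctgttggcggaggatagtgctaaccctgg
Cd3e: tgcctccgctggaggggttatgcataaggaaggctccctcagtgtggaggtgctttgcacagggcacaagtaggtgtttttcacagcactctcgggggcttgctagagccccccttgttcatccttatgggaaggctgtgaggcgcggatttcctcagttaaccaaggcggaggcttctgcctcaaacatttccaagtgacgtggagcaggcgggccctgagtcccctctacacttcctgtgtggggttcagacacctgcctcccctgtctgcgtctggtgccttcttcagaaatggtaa
The Cd3g window holds 1 GATAA, with its first base at position -103 from the start. The Cd3d and Cd3e windows hold 0, as does that of Cd247. Of 32817 RefSeq promoter windows of this length, 25.4% hold at least 1, so a match is common. The E-box CANNTG, which reads the same on both strands, occurs 4 times in the Cd3g window, 1 time in that of Cd3d and 2 times in that of Cd3e (72.3% of all windows hold it). The core of ETS motifs, GGAAG, with CTTCC as its other-strand form, occurs 0 times in Cd3g, 2 times in Cd3d and 3 times in Cd3e (71.4% of windows). The RUNX core TGTGGT, with ACCACA as its other-strand form, occurs in none of the 3 (16.8% of windows). Promoters of 4 of the 10 members were in the table used.

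Single transcripts in otherwise negative cells were then taken member by member, over the 7 restricted members (the 3 CD3 genes, Cd247, Trdc, Trac and Tcrg-C2). None of the 7 was seen in 4380 SI cells and 4478 colon cells, which serve as the comparison. Cd3g was the only one in 230 SI cells and 841 colon cells. In 33.0% of these SI cells and 52.3% of these colon cells it had 2 or more UMIs, up to 8 and 13. For the other members such cells were fewer. Trdc alone, in 104 SI and 144 colon cells, had 2 or more UMIs in 10.6% and 8.33% of them. Trac alone, in 111 SI and 106 colon cells, had 2 or more in 7.21% and 4.72%. Cells with Cd3d, Cd3e, Cd247 or Tcrg-C2 alone numbered between 26 and 95 per tissue, and between 89.5% and 100% of them had exactly 1 UMI.

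Cells with Cd3g alone held more ILC2 marker RNA. Their ILC2 markers summed to 2460 CPM against 1081 CPM in the comparison cells of the SI (2.28-fold, 2.17 to 2.39) and to 2913 CPM against 2389 CPM in the colon (1.22-fold, 1.19 to 1.25). Klrg1 was at 338 CPM against 128 CPM in the SI and 473 CPM against 385 CPM in the colon. Il1rl1, the interleukin 33 receptor, was at 55.8 CPM against 8.53 CPM in the SI and 147 CPM against 96.6 CPM in the colon. The T cell markers summed to 839 CPM against 629 CPM in the SI (1.33-fold, 1.23 to 1.45) and 1220 CPM against 1086 CPM in the colon (1.12-fold, 1.08 to 1.17). The leading genes of CD3-joint cells were low. Cd163l1 was at 19.9 CPM against 12.6 CPM in the SI and 13.8 CPM against 11.4 CPM in the colon, where CD3-joint cells had 486 CPM and 585 CPM. Blk was at 3.99 CPM against 12.7 CPM in the SI and 3.45 CPM against 9.89 CPM in the colon. ILC1 or NK markers were lower, 195 CPM against 447 CPM in the SI and 95.7 CPM against 246 CPM in the colon. The ILC2 difference was larger in the SI than in the colon, where ILC2 markers were common in the comparison cells too.

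Cells with Trac alone held more Klrd1 RNA. It was at 46.9 CPM against 17.1 CPM in comparison cells of the SI (2.75-fold, 1.54 to 4.57) and at 163 CPM against 50.3 CPM in those of the colon (3.25-fold, 2.44 to 4.26). The summed ILC1 or NK markers, which include Klrd1, were at 408 CPM against 447 CPM in the SI (0.911-fold, 0.764 to 1.08) and at 609 CPM against 246 CPM in colon cells (2.47-fold, 2.14 to 2.84). With Trdc alone the markers were 1.38-fold higher in the SI (1.19 to 1.59) and 1.73-fold higher in the colon (1.49 to 1.997). Cd163l1 was 2.81-fold higher with Trdc alone in the SI (1.37 to 5.18) and 2.65-fold higher in the colon (1.41 to 4.59). These ratios rest on 11 and 14 UMIs of Cd163l1.

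**Figure D5:**
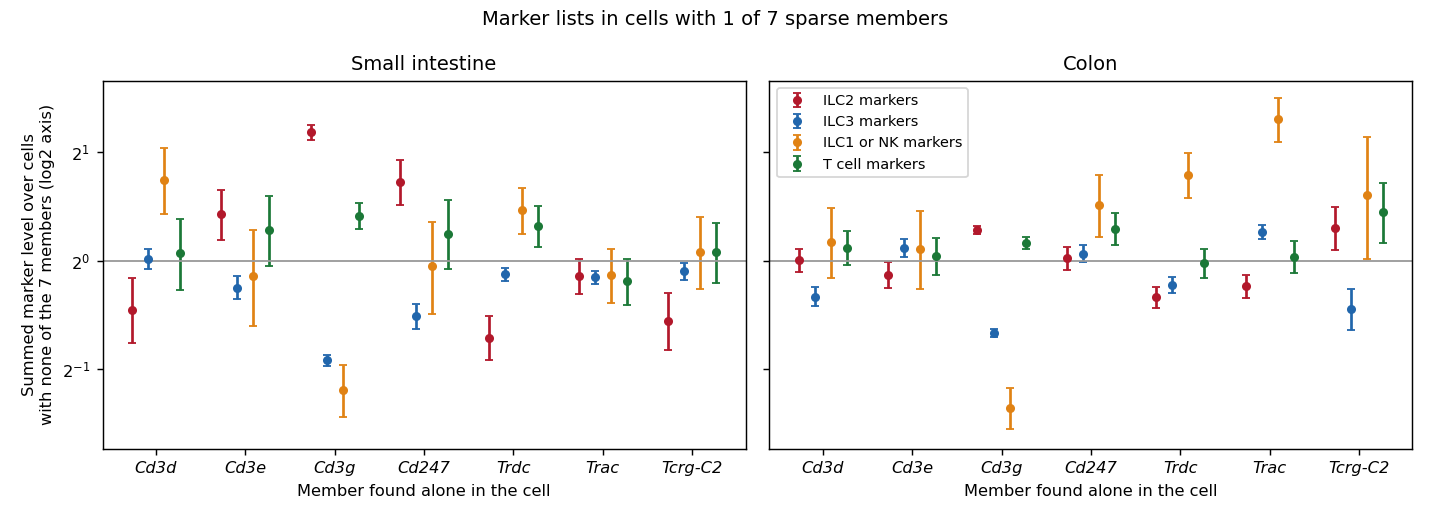
Summed level of ILC2, ILC3, ILC1 or NK and T cell markers in cells with 1 of the 7 restricted members alone, over cells with none of the 7 (log2 axis, 95% counting intervals), in the SI (left) and colon (right). ILC2 markers are highest with Cd3g alone in the SI (2.28-fold), and ILC1 or NK markers with Trac alone in the colon (2.47-fold).

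High Trdc outside CD3-joint cells was rare and came with CD3. Of the cells that were not CD3-joint, 14 in the SI and 66 in the colon had 3 or more Trdc UMIs. Of these, 78.6% in the SI and 95.5% in the colon had 1 CD3 gene, against 6.72% and 18.8% of cells with 0 Trdc UMIs. Cells with 1 Trdc UMI had 1 CD3 gene in 17.8% of the SI and 34.0% of the colon cells. Most cells with 3 or more Trdc UMIs were CD3-joint, 259 in the SI and 963 in the colon. The few left outside the call thus mostly missed it by 1 gene.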

How the data were processed

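The authors deposited raw UMI counts for all barcodes (Cell Ranger 3.0.2 and mm10, per the submitters' processing notes) and a table of the same counts for cells they had chosen; the rule of that choice is not given in the sources used here. Of 31053 genes the table held 17238, with 0 values unlike those of the matrices. The table's cells were used throughout: 15080081 UMIs in the SI and 22332691 in the colon. The members and gene lists were chosen with earlier results of these data known. The 10 members, receptor locus genes with at least 20 UMIs and the 15 highest and 10 lowest genes by CD3-joint ratio (at least 50 CPM on the higher side in each library, the same direction in both, ranked by the interval bound nearest to 1) were named, and list genes with their values. Some of these are not reported here. The genes set out between Trac and Trdc cells, between Trdc cells with and without Tcrg-C2, and in cells with 1 member alone were chosen after their values had been seen, as were the examples from the lists.

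Sums and shares were computed in Python 3.11.15 with numpy 2.4.6 and scipy 1.17.1, with Clopper-Pearson intervals for shares, exact Poisson for levels and conditional binomial for ratios; the code was tested on simulated data. They cover counting error only and no variation between cells, mice or libraries. A call meant a fold of at least 2 among genes with at least 20 UMIs. The free RNA profile came from barcodes holding 10 to 50 UMIs, and its share was set from Igkc, Igha and Jchain in cells with at most 10 such UMIs. Scrublet (scanpy 1.11.5) marked 0 doublets in both libraries, so cells were kept, and the 241 SI and 456 colon cells with the highest scores were left out as an alternative; 27 and 152 of them were CD3-joint. Thinning took each cell to 1000 UMIs and left out 0 cells. No cells were clustered.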

Additional observations from a re-analysis of the deposited data

Results flagged for a closer look

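Trac moved in opposite directions with Ncr1 in the tissues. Outside CD3-joint cells its level in Ncr1+ over Ncr1- cells was 0.606-fold in the SI and 1.89-fold in the colon, and both counting intervals excluded 1. Trbc1 in Klrd1+ over Klrd1- cells was 1.29-fold in the SI and 0.903-fold in the colon. With 1 library per tissue the difference between the tissues was not tested for either gene.

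Barcodes outside the authors' table also held the members. Of 1263 such barcodes with at least 500 UMIs in the SI 2.14% were CD3-joint, and of 893 in the colon 6.83%; a count of 0 would have allowed up to 0.238% in the SI and 0.336% in the colon. Of these CD3-joint barcodes, 19 of 27 in the SI and 40 of 61 in the colon had Trdc. All such barcodes had a median of 831 UMIs in the SI and 855 in the colon, below that of the table's cells.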

How the results depend on the processing

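No paired analysis was possible because there was 1 library per tissue and no test. The CD3-joint share was 4.95% in the SI and 11.3% in the colon with all 3 CD3 genes required, 13.95% and 34.4% with 1 CD3 gene and 1 receptor constant gene, 5.08% and 10.9% after thinning, and 18.3% in the colon without the highest doublet scores; it was lower in the SI under each of these. The share with only gamma or delta constants was 16.1% in the SI and 20.05% in the colon after thinning. With the broader CD3 rule it was 4.93% in the colon. The share with Trdc without Trac, 67.1% and 75.4%, is another measure, chosen after the data had been seen. Most of those cells also had a Trbc2 UMI, 246 of 281 in the SI and 874 of 1093 in the colon. Outside CD3-joint cells, the count of members 2-fold higher in the SI was 1 with the broader rule, 1 without the doublet scores and 2 with free RNA subtracted. The count 2-fold higher in the colon was 2 with the broader rule and 2 with free RNA subtracted, where the Cd3d log2 ratio reversed to 1.13; Cd3g stayed at -1.80 there. With 2 times the free RNA share, 4 members passed in Gata3+ and 4 in Ncr1+ cells of the SI and 4 in Klrd1+ cells of the colon, and 4 in the last also with the broader rule. Median-ratio scaling shifted all log2 tissue ratios by 0.22. Depth limits members found as single UMIs: an absent UMI does not show an absent RNA.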
